A study of Mus musculus with 13 samples.

Results

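Glutamate receptor genes and the scaffold genes of the postsynaptic density were followed through an AGO CLIP series on mouse cortex. The 6 genes were Gria2, Gria3, Grin2b, Grm5, Homer1 and Dlg4, and their members were all peaks that the deposited table assigns to one of these symbols. That gave 153 of the 18284 peaks with a position, namely 13 of Gria2, 11 of Gria3, 61 of Grin2b, 28 of Grm5, 31 of Homer1 and 9 of Dlg4. CLIP crosslinks a protein to RNA with ultraviolet light, precipitates it and sequences the attached fragments, here called tags. AGO is the protein that carries microRNAs (miRNAs) to their target RNAs, so a peak marks a place where AGO-bound fragments pile up. All mice were C57BL6 aged 7 to 8 weeks. In 5 ipsilateral and 4 contralateral libraries the cortex came from mice whose right middle cerebral artery was occluded by a filament for 35 min (MCAO, a stroke model), with 3 h of recovery, and the 2 sets are the hemispheres on and opposite the occluded side. In 4 sham libraries the arteries were exposed without a filament. No genotype, transgene or further agent beyond isoflurane anaesthesia is named for any group. Replicate numbers stand for a day of surgery and a CLIP set prepared on its own: sham has 1, 2, 3 and 5, contralateral 1, 2, 4 and 5, and ipsilateral 1 to 5.

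At excitatory synapses, glutamate released by one neuron opens AMPA receptors, which carry the fast current, and NMDA receptors, which admit calcium once the membrane is depolarised. Metabotropic glutamate receptors act through G proteins, and scaffold proteins of the postsynaptic density tether all of these to each other and to signalling enzymes. Gria2 and Gria3 encode AMPA receptor subunits, of which the Gria2 product keeps the channel nearly impermeable to calcium. Grin2b encodes an NMDA receptor subunit and Grm5 a group I metabotropic receptor. Homer1 encodes a scaffold that binds this receptor, and its short form, made from an earlier transcript end and induced by neuronal activity, lacks the part that links Homer molecules together. Dlg4 encodes PSD-95, a core scaffold protein. Overactivation of glutamate receptors is a known route of neuronal injury in ischaemia.

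Seed matches in the peaks show which miRNA families could pair with these RNAs where AGO tags lie. A site was a match to miRNA bases 2 to 8 (7mer-m8), to bases 2 to 7 followed by A (7mer-A1), or to both (8mer), on the transcript strand. The windows below hold the site, in capitals, with its surroundings in DNA letters. They come from GENCODE M21 transcripts (GRCm38, the mm10 build) and are a selection made after the values were seen, to show sites in well-tagged peaks, sites of 1 family in several of the genes, and both Homer1 ends. The A-rich miR-129-5p sites and further sites of other families are not printed.
Gria2, miR-219a-5p site, chr3:80686663-80686692, minus strand: gatgactatatACAATCAaagctatttatt
Gria2, miR-218-5p site, chr3:80688224-80688253, minus strand: tcataatgactAAGCACActtgacatcaac
Gria2, miR-223-3p site, chr3:80687048-80687077, minus strand: gagttaaaagcAACTGACAcccagtagtta
Gria3, miR-223-3p site, chrX:41678182-41678211, plus strand: taaaacaaaccAACTGACctatacacaaac
Gria3, miR-182-5p site, chrX:41678466-41678495, plus strand: gaacagaaaaaTTGCCAAgcaaactaatgg
Grm5, miR-182-5p site, chr7:88131621-88131650, plus strand: ctttcaccatgTTGCCAAtcaatactggag
Gria3, miR-181a-5p site, chrX:41676983-41677012, plus strand: gtaaatctttaGAATGTAaatgtgacactt
Homer1 short form, miR-181a-5p site, chr13:93356611-93356640, plus strand: gactgtaaacaTGAATGTgaaatggcacta
Homer1 short form, miR-101a-3p site, chr13:93357343-93357372, plus strand: cactaaacatcTACTGTAtacttggtttaa
Homer1 long form, miR-26a-5p site, chr13:93402422-93402451, plus strand: agacatgaaaaACTTGAActacaaattacc
Dlg4, miR-26a-5p site, chr11:70045514-70045543, plus strand: aagagacagacACTTGAAaccccgtgtgtg
Dlg4, miR-103-3p site, chr11:70045450-70045479, plus strand: gaggacaggaaATGCTGCcgccttctgcaa

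The matching mature miRNAs, from RefSeq (GRCm38.p6), are printed in RNA letters with the seed, bases 2 to 8, in capitals. The 8 seeds shown differ from one another.
miR-219a-5p: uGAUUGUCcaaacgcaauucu
miR-218-5p: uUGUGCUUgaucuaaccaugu
miR-223-3p: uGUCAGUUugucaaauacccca
miR-182-5p: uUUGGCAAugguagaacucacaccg
miR-181a-5p: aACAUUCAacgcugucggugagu
miR-101a-3p: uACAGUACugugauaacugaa
miR-26a-5p: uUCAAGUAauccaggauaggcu
miR-103-3p: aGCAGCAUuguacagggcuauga

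Of the 95 exonic peaks of the 6 genes, 40 (42.11%) held a site of at least 1 of the 41 families searched, against 5275 of 11528 exonic peaks searched in the whole table (45.76%). The share ran from 26.92% of 26 peaks for Grin2b to 68.75% of 16 peaks for Grm5. Sites of miR-129-5p, which can be a run of A after a single C, lay in 7 peaks of Gria3, Grin2b, Grm5 and Homer1 (7.37%, against 3.64% of all exonic peaks). Of the Gria3 peaks among these, 2 share a site. miR-223-3p had a site in 1 peak each of Gria2, Gria3 and Grin2b (3.16%, against 1.10%). miR-182-5p had one each in Gria3, Grin2b and Grm5, against 2.27% of all exonic peaks. Further families lay below their share over all exonic peaks. miR-9-5p had sites in 0 of the 95 peaks, against 4.17%. For let-7a-5p, miR-128-3p and miR-27b-3p the share was 1.05%, against 2.28 to 2.75%. Sites of miR-101a-3p lay in 0 of the exonic peaks but in 4 peaks at the short Homer1 end that the table labels intron, 2 of which share a site. miR-26a-5p had one in the most-tagged 3'UTR peak of Dlg4 and in a long-form peak of Homer1. The most-tagged peak of Gria3 held no site of these families. A match describes letters in a window and is no evidence of pairing. The listed families miR-124-3p, miR-23b-3p and miR-485-5p had no entry under those names and were not searched.

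The tags of the matching miRNAs gave no call between groups. Of the 1427 miRNAs tested with edgeR's quasi-likelihood test, 0 had an adjusted p (Benjamini-Hochberg, here and below) under 0.05 in any of the 3 comparisons (35 to 52 at an unadjusted p under 0.05). miR-26a-5p was well tagged, with 5118 tags over the 13 libraries, 29.76 times the median of the 1705 miRNAs listed. Its ipsilateral minus sham log2 fold change was 0.33 (SE 0.56, edgeR adjusted p 1.00). miR-101a-3p had 682 tags and a fold change of 0.28 (SE 0.29). miR-182-5p (211 tags), miR-223-3p (249), miR-181a-5p (277), miR-218-5p (180) and miR-103-3p (206) lay within 2-fold of that median. Their log2 fold changes between ipsilateral and sham ran from -0.69 for miR-103-3p to 0.21 for miR-182-5p. No value is given for miR-219a-5p.

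The AMPA receptor genes were tagged almost wholly in their 3'UTRs. For Gria2, 457 of 479 tags (95.4%, exact 95% interval 93.1 to 97.1%) lay in peaks that the table labels 3'UTR, and for Gria3 502 of 525 (95.6%, 93.5 to 97.2%). Over all peaks of the table that share was 36.9%. That whole includes intergenic peaks, with 17.1% of its tags, a label that 0 peaks of the 6 genes carry. Homer1 had 66.6% and Grm5 61.3% of its tags there, Dlg4 36.8% and Grin2b 22.3%. The Homer1 value is low by its labels: all 9 of its peaks labelled intron, with 23.9% of its tags, lie in a 3'UTR in GENCODE. That 3'UTR belongs to the short Homer1 transcript. Grin2b had 60.1% of its tags in introns and 13.8% in coding sequence. Its tags lay in 61 peaks, but 1 intronic peak held 223 of its 694 tags, 87.0% of them in replicate 1. These intervals cover at most the counting error of tags pooled over 13 libraries, and not the spread between libraries. Overlapping peaks can count a tag more than once. Whether duplicate tags were removed is not given in the sources used here.

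**Figure D1:**
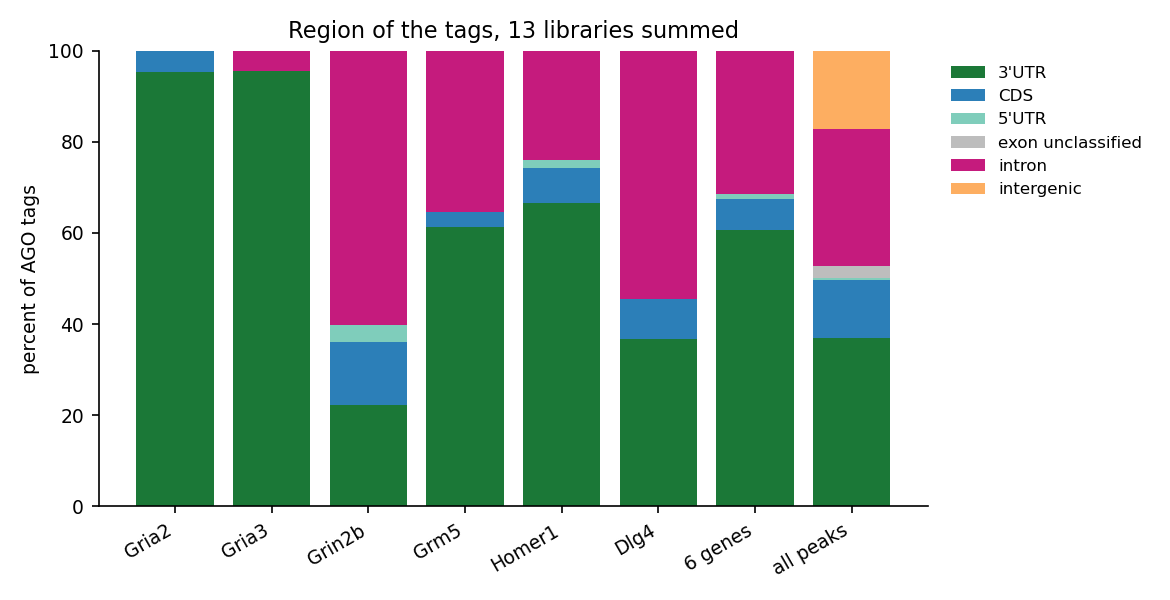
Percent of AGO tags (y axis) by the region label of the peak table, for each of the 6 genes, the 6 together and all peaks, with 13 libraries summed. 3'UTR tags make up 95.4% for Gria2 and 95.6% for Gria3, while introns take 60.1% for Grin2b and 54.5% for Dlg4. In each of these, 1 peak held many intron tags: 223 of 417 for Grin2b and all 243 for Dlg4. Replicate 1 gave 87.0% and 88.9% of the tags of these peaks.

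Along the 3'UTRs the peaks assigned to the genes were placed unevenly, as the maps of peaks after the stop codon show. The 11 peaks in the 3'UTR of the main Gria2 coding transcript lay within 2788 bases of the stop codon, in the first 36.4% of a 7659-base 3'UTR. Those of Grin2b lay in the first 11.5% of an 18868-base span. The spans are from GENCODE, while the annotation that assigned peaks to genes is not given in the sources used here. Peaks farther along could carry another label, and 2430 peaks have no gene name. Whether tags continue along the rest of these spans was not examined. All 10 exonic peaks of Gria3 lay in the last of its 16 exons, and the strongest stood at the start of that exon's cluster. The strongest Dlg4 peak labelled 3'UTR lay 817 bases after the stop codon, near the end of an 840-base 3'UTR. One further Gria2 peak labelled 3'UTR, of 10 tags, lies in a retained-intron transcript in GENCODE.

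**Figure D2:**
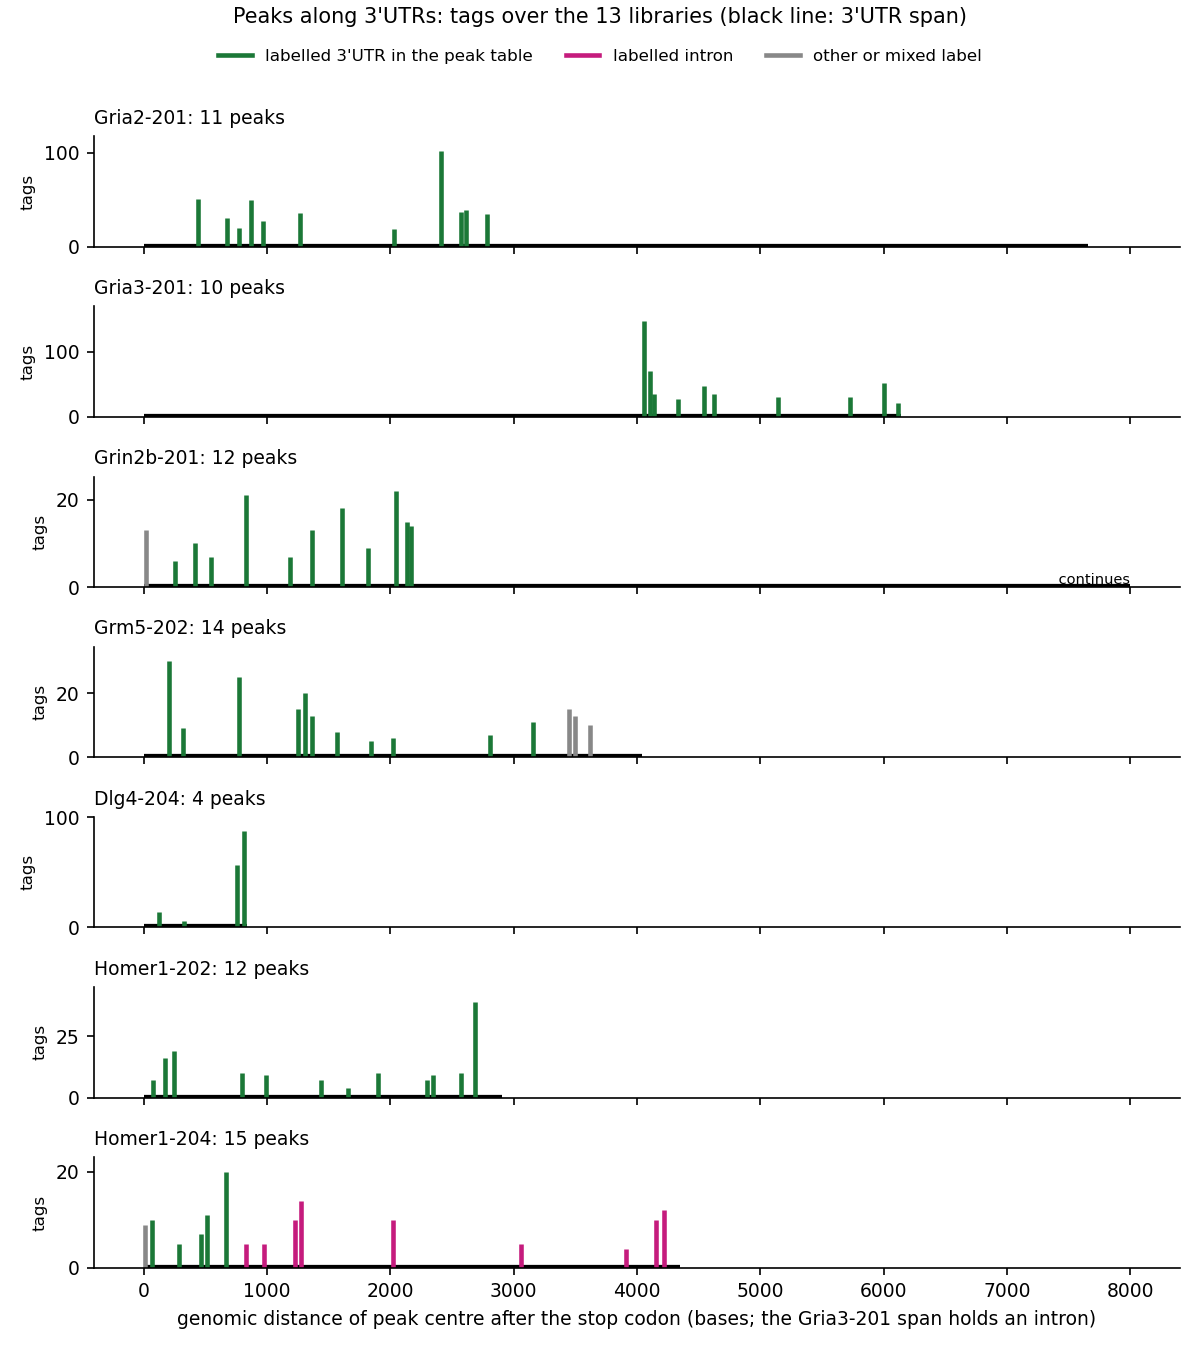
Tags summed over 13 libraries (y axis, a separate scale for each transcript) against genomic distance of the peak centre after the stop codon in bases (x axis), with 1 bar for each peak. Only peaks that the table assigns to the gene are drawn. Those of Gria2 reach 2788 bases of a 7659-base 3'UTR, and 9 of the 15 peaks in the 3'UTR of the short Homer1 transcript carry the label intron.

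For comparisons between groups, tags were summed over each gene's exonic peaks and tested in 1 edgeR fit of all 13 libraries. None of the 6 genes passed the adjusted p of 0.05 in any comparison. All 6 passed the filter on low counts and were among the 444 genes tested. Of all these genes 0.225% were called between ipsilateral and sham (1, the heat shock gene Hspa1b), 0% between ipsilateral and contralateral and 0% between contralateral and sham. At an unadjusted p under 0.05 these counts were 46, 54 and 9, among them 0, 1 and 0 of the 6. With the replicate number as a block, ipsilateral against contralateral called 1 gene, none of the 6. DESeq2 called 2, 4 and 0 genes in the 3 comparisons, none of the 6. The spread between libraries (biological coefficient of variation 0.366) and 31 to 289 exonic tags of the 6 genes per library set this precision. The comparisons share libraries: ipsilateral stands in 2 of them, and so do sham and contralateral. CLIP tags do not separate less RNA from less AGO bound to it, and no RNA level was measured here. In such tissue, fewer cells of a type and less RNA per cell cannot be told apart either.

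Gria3 had the most negative fold change of the 6 genes in both ipsilateral comparisons, without passing the test. Its exonic tags per 10000 exonic tags of the library were 24.7, 19.2, 29.4 and 34.6 in sham 1, 2, 3 and 5. They were 24.1, 25.7, 38.8 and 29.7 in contralateral 1, 2, 4 and 5, and 18.0, 23.5, 19.2, 8.03 and 24.4 in ipsilateral 1 to 5. The ipsilateral libraries were mostly low, but their range overlapped both others, and the lowest value, 8.03, is 4 tags. The mean was 27.0 ± 6.59 (SD, n = 4) in sham, 29.5 ± 6.57 (n = 4) in contralateral and 18.6 ± 6.51 (n = 5) in ipsilateral. The log2 fold change of ipsilateral minus sham was -0.50 (SE 0.26, 95% interval -1.06 to 0.05, edgeR adjusted p 0.518). Against contralateral it was -0.60 (SE 0.27, interval -1.16 to -0.04, edgeR unadjusted p 0.0379, adjusted p 0.353). Contralateral minus sham gave 0.09 (interval -0.48 to 0.66).

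Single peaks of Gria3 did not move alike in their counts. The strongest one (chrX:41676480-41676559, 148 tags) had 12, 12, 14 and 29 tags in sham, 18, 15, 13 and 3 in contralateral and 7, 14, 10, 1 and 0 in ipsilateral. Per 10000 exonic tags this was 10.9 ± 5.54 (SD, n = 4), 10.2 ± 8.19 (n = 4) and 2.99 ± 2.11 (n = 5), with overlap between the groups. The other 9 exonic peaks together came to 16.1 ± 4.36, 19.3 ± 4.73 and 15.6 ± 6.62. Among these, the peak at chrX:41676530-41676609 overlaps the strongest one, so the 2 sums can share tags. The peak with the miR-181a-5p site (chrX:41676961-41677040) had 4, 0, 2 and 2 tags in sham, 5, 2, 3 and 2 in contralateral and 9, 8, 9, 0 and 2 in ipsilateral. Per 10000 exonic tags these came to 0 to 2.264, 1.251 to 5.055 and 0 to 6.966, so the groups overlapped. That peak did not pass the filter of the single-peak test. The strongest peak did, with an ipsilateral minus sham log2 fold change of -1.60 (SE 0.96, interval -3.53 to 0.34, edgeR adjusted p 0.998) and -1.68 (SE 0.99, edgeR adjusted p 0.988) against contralateral.

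Gria2 differed little between ipsilateral and sham. Its exonic tags per 10000 were 20.1, 19.9, 21.5 and 23.6 in sham, 18.6, 31.3, 27.0 and 50.5 in contralateral, and 11.8, 22.3, 26.5, 22.1 and 31.4 in ipsilateral. Sham libraries lay close together, and contralateral replicate 5 stood high at 50.5 (46 tags). The means were 21.3 ± 1.71 (SD, n = 4), 31.8 ± 13.5 (n = 4) and 22.8 ± 7.22 (n = 5). Ipsilateral minus sham was 0.02 (SE 0.26, interval -0.54 to 0.58), and it turned to -0.12 with 3'UTR peaks only. Ipsilateral minus contralateral was -0.52 (SE 0.26, edgeR adjusted p 0.393) and contralateral minus sham 0.54 (SE 0.27, edgeR adjusted p 0.998). Without contralateral replicate 5 these were -0.25 and 0.23. The strongest Gria2 peak (chr3:80686657-80686736, exon 16 of 16, 102 tags), which holds the miR-219a-5p site, had 13, 11, 1 and 13 tags in sham, 10, 13, 2 and 10 in contralateral and 2, 10, 11, 2 and 4 in ipsilateral. Its ipsilateral minus sham log2 fold change was -0.05 (SE 0.99). The peak with the miR-218-5p site had 15, 17 and 18 tags in the 3 groups.

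**Figure D3:**
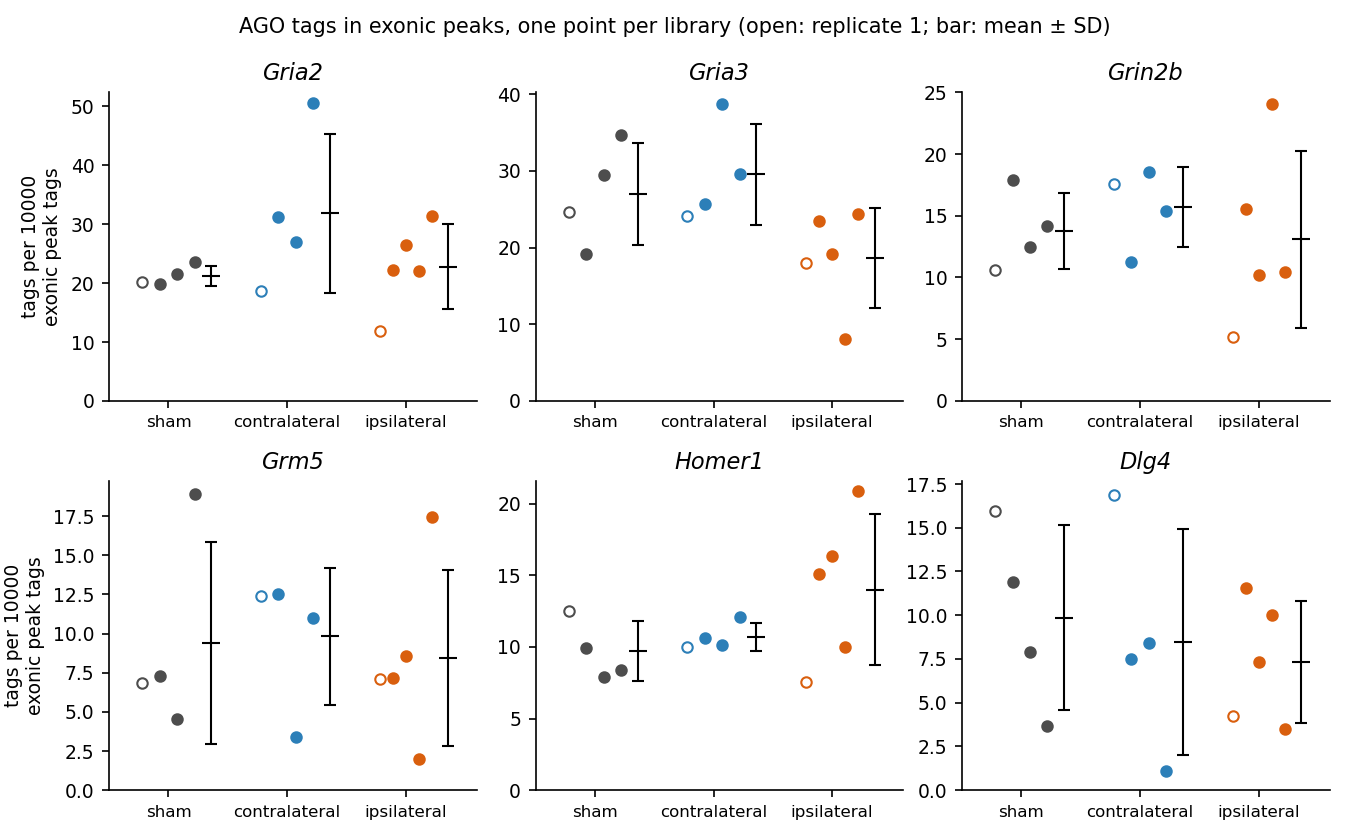
Exonic AGO tags of each gene per 10000 exonic tags of the library (y axis, starting at 0), with 1 point for each library, open points for replicate 1 and bars for the mean and SD of 4, 4 and 5 libraries. The 3 groups overlap for every one of the 6 genes; Gria3 has ipsilateral values of 8.03 to 24.4 and sham values of 19.2 to 34.6.

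The NMDA receptor gene Grin2b gave similar shares in the 3 groups. Its exonic tags per 10000 were 10.6, 17.9, 12.5 and 14.2 in sham, 17.6, 11.3, 18.5 and 15.4 in contralateral, and 5.20, 15.5, 10.2, 24.1 and 10.5 in ipsilateral. The lowest and the highest of the 13 libraries were both ipsilateral. The log2 fold changes were -0.16 (ipsilateral minus sham, interval -0.86 to 0.54), -0.35 (ipsilateral minus contralateral, interval -1.06 to 0.35) and 0.20 (contralateral minus sham, interval -0.52 to 0.91). The strongest exonic peak held only 22 of its 277 exonic tags, and the next 21, so no exonic peak of Grin2b was thick enough for the single-peak test.

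The strongest peak of Grin2b was intronic and came mainly from replicate 1. This peak (chr6:135876386-135876465) held 223 of 694 tags, with 67, 3, 12 and 0 in sham, 49, 5, 0 and 0 in contralateral and 78, 2, 5, 2 and 0 in ipsilateral. The 3 libraries of replicate 1 held 87.0% of its tags, against 50.9% of all peak tags and 66.3% of tags in all intronic peaks. Such peaks were common: of 84 intronic peaks with at least 200 tags, 41 had over 80% of them in replicate 1. It lies in the span of Gm14330, a gene on the other strand, and the strand of the tags is not known. Dlg4 had a like peak (chr11:70034910-70034989) with 243 of its 446 tags and 88.9% of them in replicate 1: 71, 3, 10 and 2 in sham, 51, 0, 0 and 0 in contralateral, and 94, 3, 9, 0 and 0 in ipsilateral. It is labelled intron, but in GENCODE it lies in the last exon, 8 of 8, of a short Dlg4 transcript. Ipsilateral minus sham was -0.11 (SE 1.04) for the Grin2b peak and -0.05 (SE 1.07) for the Dlg4 peak. Of the 238 peaks tested with edgeR, 0% passed an adjusted p of 0.05 in each of the 3 comparisons (5, 6 and 1 at an unadjusted p under 0.05, and 0 with DESeq2). Only 4 of these peaks belonged to the 6 genes. Intronic and intergenic peaks made up 55.86 to 67.05% of tags in the replicate 1 libraries and 22.83 to 50.7% in the other 10, which is why exonic sums were compared.

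Grm5 varied widely within each group. Its exonic tags per 10000 were 6.84, 7.28, 4.53 and 18.9 in sham, 12.4, 12.5, 3.37 and 10.98 in contralateral, and 7.09, 7.16, 8.57, 2.01 and 17.4 in ipsilateral. Replicate 5 was highest in sham and ipsilateral. Replicate 4 was lowest in contralateral and ipsilateral, on only 2 tags and 1 tag. Ipsilateral minus sham was -0.30 (interval -1.21 to 0.61), and it changed sign with the replicate block (0.06) and without sham replicate 5 (0.25). Ipsilateral minus contralateral was -0.45 (interval -1.37 to 0.48) and contralateral minus sham 0.15 (interval -0.77 to 1.07). Its strongest 3'UTR peak (chr7:88131034-88131113) had 10, 14 and 6 tags in sham, contralateral and ipsilateral libraries. The next (chr7:88131604-88131683), which holds the miR-182-5p site, had 5, 7 and 13, so the counts of these peaks did not order the groups alike. Those counts are small and not scaled for depth, and neither peak passed the filter of the single-peak test.

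Homer1 was the only one of the 6 genes whose fold change was positive in both ipsilateral comparisons, and its intervals include 0. Its exonic tags per 10000 were 12.5, 9.93, 7.92 and 8.39 in sham, 9.99, 10.6, 10.1 and 12.1 in contralateral, and 7.56, 15.1, 16.3, 10.0 and 20.9 in ipsilateral. Of the ipsilateral libraries, replicates 2, 3 and 5 stood above every sham and contralateral library, while replicate 1 was the lowest of all 13. The means were 9.70 ± 2.08 (SD, n = 4), 10.7 ± 0.96 (n = 4) and 14.0 ± 5.28 (n = 5). Ipsilateral minus sham was 0.42 (SE 0.28, interval -0.17 to 1.00, edgeR adjusted p 0.618) and ipsilateral minus contralateral 0.31 (SE 0.28, interval -0.28 to 0.91, edgeR adjusted p 0.621). Without the 3 libraries of replicate 1 ipsilateral minus sham was 0.72 (edgeR adjusted p 0.268).

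**Figure D4:**
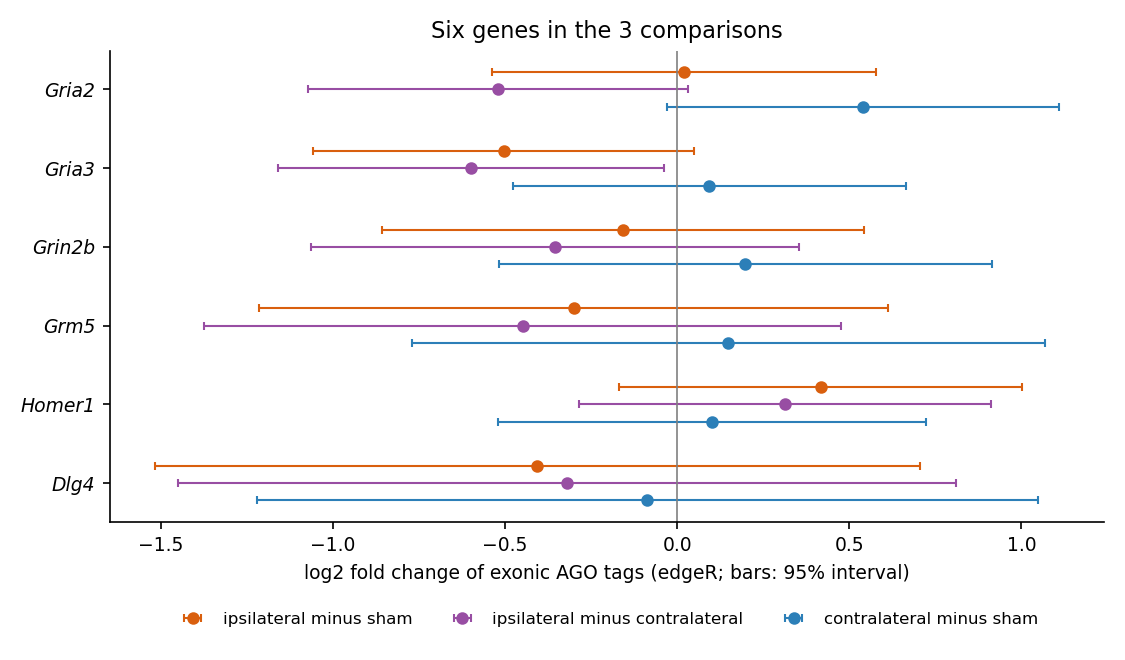
Log2 fold change of exonic AGO tags from edgeR (x axis) for the 6 genes (y axis), with 95% intervals; colours mark the 3 comparisons, which share libraries. Homer1 lies at 0.42 and 0.31 in the ipsilateral comparisons and Gria3 at -0.50 and -0.60, and 17 of the 18 intervals include 0.

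Homer1 tags fell at 2 transcript ends that the table does not separate. The 3'UTR of the short transcript held 15 peaks, 9 of them labelled intron, and the 3'UTR of the long transcript held 12. Tags at the short end were 14, 9, 3 and 10 in sham, 9, 7, 1 and 6 in contralateral and 8, 34, 22, 7 and 7 in ipsilateral. At the long end they were 21, 10, 3 and 5 in sham, 23, 15, 5 and 8 in contralateral and 11, 20, 21, 2 and 3 in ipsilateral. Per 10000 exonic tags the short end had 4.98 ± 1.10 (SD, n = 4) in sham, 3.94 ± 2.08 (n = 4) in contralateral and 12.9 ± 7.62 (n = 5) in ipsilateral. The long end had 5.15 ± 2.56, 8.63 ± 0.62 and 7.24 ± 2.605. In ipsilateral replicates 2 to 5 the short end lay at 8.97 to 24.4, above all sham and contralateral libraries (1.69 to 6.59), and ipsilateral replicate 1 lay among them at 3.78. With the libraries of a group pooled, the short end took 48.0% of the tags at both ends in sham, 31.1% in contralateral and 57.8% in ipsilateral. By library this share was 40 to 66.7% in sham, 16.7 to 42.9% in contralateral and 42.1 to 77.8% in ipsilateral, so the groups overlapped. The strongest single peaks were chr13:93356740-93356819 at the short end, with 3, 2 and 15 tags in sham, contralateral and ipsilateral, and chr13:93404872-93404951 at the long end, with 11, 14 and 14. This division was made after the values were seen and has no test. As an added alternative, the peaks labelled intron at the short end were summed into Homer1, which gave 0.58 (SE 0.27, edgeR adjusted p 0.492) for ipsilateral minus sham and 0.56 (SE 0.28, edgeR adjusted p 0.395) for ipsilateral minus contralateral.

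**Figure D5:**
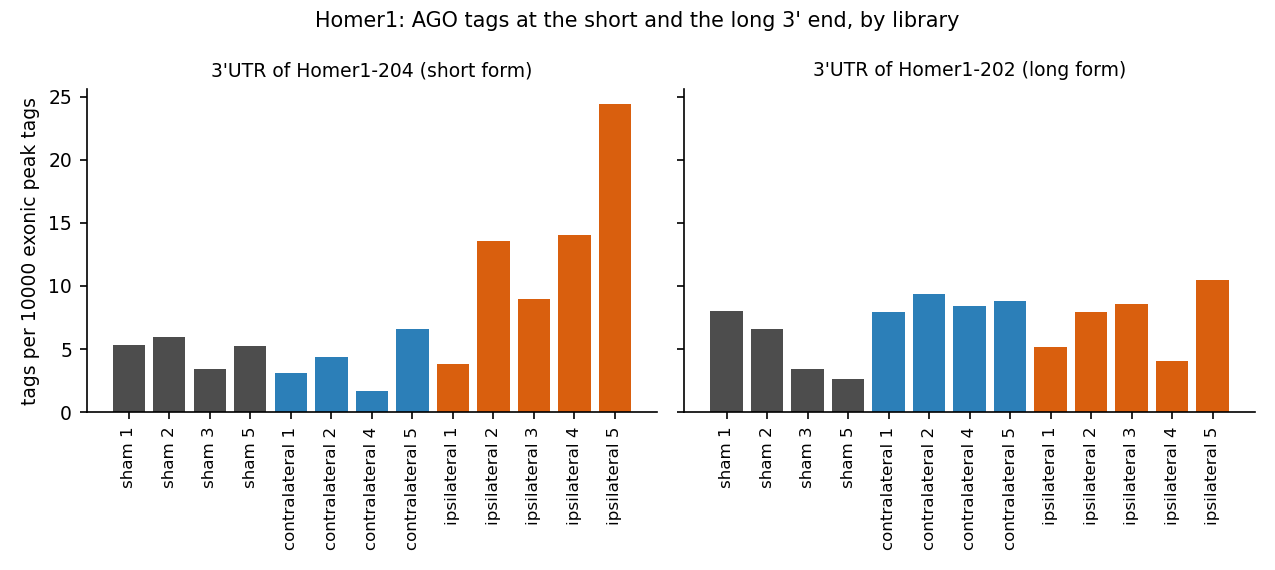
AGO tags per 10000 exonic tags of the library (y axis) at the 3'UTR of the short and of the long Homer1 transcript, with 1 bar for each of 13 libraries coloured by group. The short end reaches 8.97 to 24.4 in ipsilateral replicates 2 to 5 and 3.78 in ipsilateral replicate 1, and the long end 4.01 to 10.5 in ipsilateral.

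Dlg4 had no stable direction. Its exonic tags per 10000 were 15.96, 11.9, 7.92 and 3.67 in sham, 16.9, 7.51, 8.42 and 1.10 in contralateral, and 4.25, 11.5, 7.34, 10.0 and 3.48 in ipsilateral. Replicate 1 was highest in sham and contralateral. Replicate 5 was lowest in all 3 groups, on only 7 tags in sham, 1 in contralateral and 1 in ipsilateral. Ipsilateral minus sham was -0.41 (interval -1.52 to 0.70) and 0.14 without the 3 libraries of replicate 1. Ipsilateral minus contralateral was -0.32 (interval -1.45 to 0.81) and 0.46 without contralateral replicate 1. The strongest 3'UTR peak (chr11:70045469-70045548, 87 tags), with the miR-26a-5p site, had 24, 5, 3 and 2 tags in sham, 29, 3, 1 and 0 in contralateral, and 4, 9, 6, 1 and 0 in ipsilateral. It overlaps the peak with the miR-103-3p site (57 tags), so the 2 can share tags.

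Read as a group, the 6 genes had a median log2 fold change of -0.23 in ipsilateral minus sham, with 4 of 6 negative, beside 0.02 over all 444 genes tested. The median was -0.40 with 5 of 6 negative in ipsilateral minus contralateral, beside 0.01 over all genes, and 0.13 in contralateral minus sham, beside 0.03. With single libraries left out these medians changed in size, and each kept its sign. Ipsilateral replicate 1 had the lowest summed share of the 6 genes, 53.88 per 10000 against 76.26 to 119.7 in the other 12 libraries, and without it the ipsilateral medians were -0.15 and -0.27. The ipsilateral minus sham median was -0.13 without sham replicate 1, -0.074 without sham replicate 5 and -0.37 without sham replicate 3. Ipsilateral minus contralateral ranged from -0.50 (without ipsilateral replicate 2) to -0.24 (without contralateral replicate 1). With 1 library left out, contralateral minus sham ranged from 0.012 (without sham replicate 2) to 0.21 (without sham replicate 1). The genes did not vary together: Pearson's r of their log2 levels over the 13 libraries ran from -0.57 (Gria2 and Dlg4) to 0.41 (Gria3 and Grm5). These correlations share the libraries' depths and are descriptions.

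Other genes most like each member over the 13 libraries, among 443 compared, were found by the same measure. Gria3 was closest to Epb4.1l1 (r 0.92), Tnrc6b (0.90) and Cpeb4 (0.84). Gria2 was closest to Slc1a2 (0.85), the main astrocyte glutamate transporter, Trim37 (0.78) and Nrsn1 (0.73). For Grin2b these were Olfm1 (0.825), Unc13a (0.76) and Kif5a (0.73), and for Grm5 Abi2, Prnp and Tob1 (0.78 to 0.79). For Homer1 they were Ppp3r1, Atp6v1a and Enc1 (0.71 to 0.72), and for Dlg4 Snn, Tubb5 and Camk2n1 (0.69 to 0.74). These are the 3 highest of 443 values for each member, beside a median r of -0.07 to 0.05. Whether they exceed what such a choice gives by chance was not tested.

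Most other receptor genes had too few tags to test. Of 9 further AMPA, kainate and delta subunit genes 3 had exonic tags and 0 were tested, with Gria1 at 24 tags and Gria4 at 17. Of 6 further NMDA subunit genes only Grin1 had any (8 tags), and of 7 further metabotropic receptor genes 2 had tags, Grm7 (32) and Grm3 (25). Of 16 auxiliary subunit genes 9 had tags and 1 was tested: Frrs1l, an AMPA receptor assembly factor with 91 tags, gave 1.47 in ipsilateral minus sham (SE 0.56, edgeR adjusted p 0.387). Cnih2, which also accompanies AMPA receptors, had 38 tags.

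Among the further scaffold genes 14 of 22 had tags, 6 were tested and 0 passed in either direction in any comparison. Their median log2 fold change was -0.42 in ipsilateral minus sham (4 of 6 negative) and -0.50 in ipsilateral minus contralateral (5 of 6 negative), beside 0.02 and 0.01 over all genes. Dlg2, a relative of Dlg4 with 793 tags, gave -0.25 (SE 0.21) and -0.44 (SE 0.21, edgeR adjusted p 0.393). Sipa1l1, a spine protein with 459 tags, gave -0.59 (SE 0.23, edgeR adjusted p 0.422) and -0.99 (SE 0.23, edgeR adjusted p 0.117). Summed over the list, scaffold tags per 10000 were 103 to 146.9 in sham, 127.8 to 152 in contralateral and 73.15 to 108.2 in ipsilateral. In this sum ipsilateral lay below contralateral and overlapped sham. Dlg2 and Sipa1l1 gave the most tags to it, so it does not stand for the list as a whole. The share of all genes whose groups separate in this way was not counted.

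Of 15 postsynaptic signalling genes 13 had tags, 6 were tested and 0 passed in any comparison, with 3 positive and 3 negative each time. Camk2a, a kinase abundant in the postsynaptic density (1697 tags), gave -0.86 in ipsilateral minus sham (SE 0.25, edgeR adjusted p 0.137) and -0.94 in ipsilateral minus contralateral (SE 0.25, edgeR adjusted p 0.118). Cyfip2, an actin regulator (511 tags), gave 0.38 (SE 0.27) and 0.04 (SE 0.27).

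Cell type marker lists had 0 genes called in any comparison. Excitatory neuron markers (4 of 5 with tags, Neurod6 at 0) summed to 102.3 to 113.2 tags per 10000 in sham, 88.96 to 129.5 in contralateral and 42.54 to 91.89 in ipsilateral; Camk2a, which is also on the signalling list, gave most of these tags. The other excitatory marker tested, the vesicular glutamate transporter gene Slc17a7, had a log2 fold change of 0.48 in ipsilateral minus sham, opposite in sign to the -0.86 of Camk2a. General neuron markers (4 of 6 with tags, Rbfox3 and Tubb3 at 0) overlapped between groups at 148.3 to 212.4, 182.3 to 205.5 and 113.4 to 247.6. Inhibitory neuron markers (2 of 3 with tags, Slc32a1 at 0) came to 6.29 to 10.2, 1.69 to 10.98 and 4.01 to 13.9. Astrocyte markers (6 of 7, Gfap at 0) came to 249.7 to 317.3, 280.3 to 433.8 and 178.7 to 306.5. Oligodendrocyte lineage markers (5 of 7, Mog and Mag at 0) came to 40.66 to 56.9, 42.54 to 69.19 and 13.93 to 44.15. Microglial, vascular and blood lists had 1 gene each with tags (Csf1r, Flt1 and Hbb-bs), at most 4.73 per 10000 in any library, with Cx3cr1, P2ry12, Cldn5, Pecam1 and both alpha globin genes at 0. The part of cell makeup in the values of the 6 genes was not tested.

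The libraries differed in depth, from 3780 peak tags in ipsilateral replicate 5 to 71027 in sham replicate 1. Exonic tags ran from 2871 to 29039, so 1 tag is 0.34 to 3.48 per 10000. A count of 0 allows up to 3 tags, or 10.5 per 10000 in the thinnest library.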

How the data were processed

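AGO CLIP tags were counted in 13 cortex libraries (4 sham, 4 contralateral, 5 ipsilateral). The authors deposited 2 tables of counts, whole tags per AGO peak and per mature miRNA, not normalized; every column matched 1 sample. Tags were cloned by BrdU-CLIP, which captures copied fragments by a base analog, and read on single ends, per the labels' protocols, and Novoalign and mm10 are named in the submitters' processing notes, without a version or a role. The peak caller, whether peaks were called on pooled libraries, duplicate removal and the gene annotation: not given in the sources used here. Of 18285 peaks 1 without a position (44 tags) was left out, and no peak had fewer than 3 tags. Most peaks (18277) are 80 bases wide, and 22.88% of the members' peaks overlap another of the same gene, so a tag can be counted more than once. Peak starts were read as 0-based.

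Exonic means that the table's region names a 3'UTR, CDS, 5'UTR or unclassified exon, alone or with another label: 12289 peaks and 208059 tags. Gene sums, single peaks and miRNAs were each tested with edgeR 4.0.16 (R 4.3.3), TMM scaling, filterByExpr, quasi-likelihood F tests, two-sided, with Benjamini-Hochberg adjustment over all features tested, in all 13 libraries. Standard errors are the fold change over the root of F. DESeq2 1.42.0, other scalings, filters and peak sets, left-out libraries and the replicate block were alternatives. The script was tested on simulated data.

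Replicate numbers pair the libraries, since the series text ties each to a day of surgery and a CLIP set. Over genes, deviations of same-numbered libraries correlated at 0.53 to 0.54 in replicate 1 and at -0.01 to 0.39 in the others. Over single peaks these values were 0.88 to 0.91 and -0.19 to 0.62. Differently numbered libraries were not compared in this way. None of the 22 pairs of libraries within a group agreed within counting noise; pairs across groups were not compared. No label ties a library to 1 animal or to a pool, so p-values measure the spread between these libraries.

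The 6 genes and the lists were chosen with earlier results of these data known. Peaks named are the 4 most-tagged of each gene, those tested singly, and those holding a printed site; genes of the lists named are those past the threshold and the 2 most-tagged, and the printed sites were picked, and Hspa1b and genes at 0 named, after the values were seen. Likeness is Pearson's r of edgeR's log2 CPM (prior count 2). One site is not reported here.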

Additional observations from a re-analysis of the deposited data

Results flagged for a closer look

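Of 27 sets of 4 or 5 libraries examined (the share of each gene, of the 6 genes together and of both Homer1 ends in each group), 1 had a library far from its group. Contralateral replicate 4 had a Grm5 share of 3.37 exonic tags per 10000, which is 2 tags, while the other contralateral libraries lay at 10.98 to 12.5. Chance gives such a library in about 1 in 20 sets.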

How the results depend on the processing

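None of the 6 genes and none of their 4 tested peaks passed the adjusted p of 0.05 under any alternative run (435 and 219 fits); Gria3 and Homer1 kept their direction in both ipsilateral comparisons under all of them. Counts of called genes moved. In ipsilateral minus sham they were 2 with DESeq2, 2 without the filter, 2 without replicate 1, 2 with strictly exonic peaks, 0 with all peaks summed and 0 with overlapping peaks thinned, and 0 to 10 with 1 library left out, the 10 without ipsilateral replicate 1. In ipsilateral minus contralateral they were 4 with DESeq2, 2 without the filter, 1 with the replicate block, 5 without replicate 1, and 0 to 10 with 1 library left out (10 without ipsilateral replicate 1). Called peaks in ipsilateral minus contralateral were 0 to 1 with 1 library left out (1 without sham replicate 5 or ipsilateral replicate 1). The replicate block, which pairs libraries, turned Grm5 in ipsilateral minus sham to 0.059 and the Gria3 peak in contralateral minus sham to -0.24, and changed no call of the 6 genes.

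Other log2 fold changes turned sign without a call, and the cause was not tested. Without the filter these were Gria2 in ipsilateral minus sham (-0.10), Gria3 (-0.031) and Homer1 (-0.011) in contralateral minus sham, the Dlg4 intron peak in ipsilateral minus sham (0.11), and the Gria3 (-0.25) and Gria2 (-0.0036) peaks in contralateral minus sham. With all peaks summed they were Dlg4 in ipsilateral minus contralateral (0.50), and Grin2b (-0.13) and Grm5 (-0.42) in contralateral minus sham. With 3'UTR peaks only, Gria2 (-0.12) and Grin2b (0.014) turned in ipsilateral minus sham. Strictly exonic peaks turned Gria2 in ipsilateral minus sham (-0.047) and Grm5 in contralateral minus sham (-0.036), and thinned overlaps turned Gria2 in ipsilateral minus sham (-0.070) and Dlg4 in contralateral minus sham (0.087); these definitions were added after seeing the data. Without replicate 1, Dlg4 turned in ipsilateral minus sham (0.14) and minus contralateral (0.60), Grin2b (-0.11) and Grm5 (-0.19) in contralateral minus sham, and the Gria2 peak in ipsilateral minus sham (0.08). The Gria2 peak gave 0.14 there without TMM, and the Gria3 peak in contralateral minus sham -0.015 with DESeq2, -0.027 with DESeq2 size factors and -0.038 with only the 2 groups.

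With 1 library left out, ipsilateral minus sham ranged from -0.077 to 0.14 for Gria2, -0.51 to 0.25 for Grm5 (-0.55 without all 3 libraries of replicate 1) and -0.73 to 0.02 for Dlg4. Ipsilateral minus contralateral ranged from -0.64 to 0.46 for Dlg4, and contralateral minus sham from -0.89 to 0.34 for Dlg4, -0.087 to 0.20 for Gria3, 0.036 to 0.30 for Grin2b, -0.06 to 0.67 for Grm5 and -0.014 to 0.32 for Homer1. The peaks ranged in ipsilateral minus sham from -0.52 to 0.57 (Gria2), -0.34 to 1.21 (Dlg4) and -0.44 to 0.98 (Grin2b), in ipsilateral minus contralateral from -1.16 to 0.34 (Gria2) and -0.10 to 1.87 (Grin2b), and in contralateral minus sham from -0.58 to 1.152 (Gria2), -0.83 to 0.91 (Gria3) and -1.72 to 0.031 (Grin2b).

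With 8mers only, 7 of the 95 exonic peaks (7.37%) had a site, against 14.1% of all exonic peaks searched. Over all peak tags, mean shares per 10000 were 12.04 (sham) and 15.5 (ipsilateral) for Gria2, 16.1 (sham) and 20.4 (contralateral) for Gria3, 20.2 (sham), 21.4 (contralateral) and 15.6 (ipsilateral) for Grin2b, and 7.03, 8.81 and 14.6 for Homer1. The 2 intronic peaks failed the filter without replicate 1 or a replicate 1 library in some fits and have no value there.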
